A study of Rattus norvegicus with 2 samples.

Results

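Long noncoding RNAs annotated by Ensembl were described in RBL-2H3, a rat cell line from a basophilic leukaemia that serves as a mast cell model. The members are the 410 transcripts that the deposited table marks as Ensembl lncRNA, of 20367 transcripts in all. They belong to 350 gene symbols of 15409. Only 18 symbols, with 30 transcripts, carry a gene name or a LOC number. The other 332 are named after the clone or assembly piece they lie on, 263 with the prefix AABR, 20 with AC and 49 with Rn50 or Rn60. One library is of cells in normal saline, called the saline library here. The other, the treated library, is of cells exposed to PM2.5 (fine particulate matter) plus IgE and the antigen DNP-HSA. Its title reads PM100, and what that number stands for is not stated. Whether IgE and antigen were also added to the saline cells is not in the labels, nor are the times or a unit of dose.

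Long noncoding RNAs are transcripts that are often spliced and polyadenylated like messenger RNAs but have no known protein product. Some act in the nucleus on chromatin or as scaffolds of nuclear bodies, some carry small RNAs in their introns, and for many no role is known. As a class they are less abundant than messenger RNAs and differ more between cell types.

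The saline library held 7279671 reads over all listed transcripts against 3964955 in the treated one, a depth ratio of 1.836. With 1 library per group there is no replicate check and no test between conditions. Levels are the authors' normalised counts, in which 1 read stands for 0.867 in the saline and 1.65 in the treated library. They are not divided by transcript length, so levels of different genes are not ranked against each other beyond the number of reads. A log2 fold is the treated over the saline library on the normalised count plus 1. Each interval is the exact 95% range (Clopper-Pearson) of the ratio without the added 1. It covers counting error only. It also takes reads as independent, and as reads are not independent molecules it can be too narrow. Of the mast cell and basophil markers, 8 of 10 were measured, with normalised counts summing to 27250 in the saline and 25743 in the treated library. They went both ways. Cpa3 (1.74), Ms4a2 (0.79), Srgn (0.64), Fcer1g (0.62) and Fcer1a (0.44) had log2 folds with intervals above 0, and Hdc (-1.07), Gata2 (-0.45) and Kit (-0.21) had intervals below 0. Tpsb2 and Mcpt8 were not listed. None of 5 lymphocyte and none of 4 neutrophil markers was listed. Of 3 fibroblast markers, Col1a1 (16 against 15 reads) and Dcn (3 against 0 reads) had few reads.

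For Pvt1, LOC102549726 and Tug1, the named lncRNAs with the most reads, the region around the RefSeq start site was looked up. Whether the measured Ensembl transcripts begin there was not tested. No window is given here for LOC100909912 (113 reads) and LOC103689920 (111 reads). RefSeq's promoter table of the build GRCr8 has 1 entry each for Tug1 and LOC102549726 and none for Pvt1. Each sequence runs 5′ to 3′ on the gene's strand, from 250 bases before the start to 50 after it. Capitals mark matches to the motifs searched on both strands: TGACGTCA (the cyclic AMP element), TGANTCA (AP-1), GCGTG (the core bound by the aryl hydrocarbon receptor), TGACNNNGC (the antioxidant element), CCAAT and TATAAA. Tug1 lies at chr14:82750485-82750784 on the minus strand and LOC102549726 at chr20:3880958-3881257 on the plus strand.
Tug1: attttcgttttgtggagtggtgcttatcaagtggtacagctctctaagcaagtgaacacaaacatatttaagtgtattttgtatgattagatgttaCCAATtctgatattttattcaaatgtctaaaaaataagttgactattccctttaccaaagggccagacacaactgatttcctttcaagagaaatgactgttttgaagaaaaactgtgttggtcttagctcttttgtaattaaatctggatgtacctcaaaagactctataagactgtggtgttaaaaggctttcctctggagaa
LOC102549726: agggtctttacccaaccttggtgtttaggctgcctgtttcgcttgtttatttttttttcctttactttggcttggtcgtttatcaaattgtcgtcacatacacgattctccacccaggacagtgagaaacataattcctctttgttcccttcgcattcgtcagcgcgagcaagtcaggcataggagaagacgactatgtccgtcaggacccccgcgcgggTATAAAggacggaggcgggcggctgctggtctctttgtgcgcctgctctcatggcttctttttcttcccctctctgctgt

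The Tug1 window had 34% G and C and 1 match, to CCAAT, which 37.5% of all 33469 promoters in the table hold. The LOC102549726 window had 50.3% G and C, against a median of 51.7% over all promoters, and 17 CG pairs against 1 in the Tug1 window. Its 1 match was to TATAAA, which 14.2% of promoters hold. The other motifs had 0 matches in both windows. They are held by 1.83% (TGACGTCA), 7.33% (TGANTCA), 29.7% (GCGTG) and 12.1% (TGACNNNGC) of all promoters.

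Tug1 (ENSRNOG00000051135) is a conserved noncoding RNA found in both nucleus and cytoplasm and first described in the developing retina. It had 98 reads in the saline and 87 in the treated library, or normalised counts of 85.0 and 143.7. Its log2 fold was 0.75 (interval 0.32 to 1.19), short of 2-fold but with an interval above 0. In the RefSeq gene order its neighbours on either side are Smtn, which encodes smoothelin, and Morc2, which encodes a chromatin-bound ATPase. Morc2 went from 895 to 321 reads, a log2 fold of -0.55 (interval -0.74 to -0.36), and Smtn from 343 to 118 reads, a log2 fold of -0.61 (interval -0.92 to -0.30). Tug1 was thus higher and both neighbours lower in the treated library, each within 2-fold.

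Pvt1 (ENSRNOG00000062170) is a noncoding RNA gene beside the growth regulator Myc and is often amplified together with it in tumours. Summed over 8 transcripts it had 227 reads in the saline and 104 in the treated library, normalised counts of 196.9 and 171.8. The log2 fold was -0.20 (interval -0.55 to 0.14), so its reads give no direction. Myc, the nearest measured protein-coding gene on one side, went from 1468 to 236 reads, a log2 fold of -1.71 (interval -1.91 to -1.51). The Pvt1 and Myc intervals do not overlap. Asap1, the nearest measured gene on the other side, was at -0.02.

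The transcripts of Pvt1 differed among themselves. Its most abundant transcript in the saline library, ENSRNOT00000092811, had 99 against 18 reads, a log2 fold of -1.50 (interval -2.34 to -0.80). It made up 43.6% of the Pvt1 reads in the saline and 17.3% in the treated library. ENSRNOT00000092920 had 19 against 0 reads, at least 3.33-fold lower, taking 3 reads as the most that a count of 0 allows in the treated library. This floor of 3 reads is used for every bound below, and the counting intervals also allow smaller folds. ENSRNOT00000093124 went the other way with 2 against 10 reads (interval 1.02 to 6.48). The better covered ENSRNOT00000092896 (48 against 34 reads) and ENSRNOT00000092960 (25 against 20 reads) had log2 folds of 0.42 and 0.59 with intervals that held 0. Without ENSRNOT00000092811, the other transcripts summed to 128 against 86 reads, a log2 fold of 0.35 (interval -0.06 to 0.76). No source used here gives how the authors assigned reads to transcripts of 1 gene.

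LOC102549726 (ENSRNOG00000054031) showed a similar spread of transcripts. In the RefSeq gene order it stands between the heat shock gene Hspa1b and the lysosomal sialidase gene Neu1. Its 3 transcripts together had 160 against 67 reads, a log2 fold of -0.32 (interval -0.76 to 0.09). ENSRNOT00000087471 had 88 against 14 reads, a log2 fold of -1.68 (interval -2.65 to -0.90). ENSRNOT00000077098 had 36 against 42 reads, a log2 fold of 1.13 (interval 0.47 to 1.84). ENSRNOT00000081704 had 36 against 11 reads with an interval that held 0. One transcript was therefore lower and one higher by at least 2-fold, while the sum stayed within it. Hspa1b (44 against 18 reads) was at -0.35 and Neu1 (427 against 144 reads) at -0.64. Hspa1a, a near-identical copy, could share the reads of Hspa1b.

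**Figure D1:**
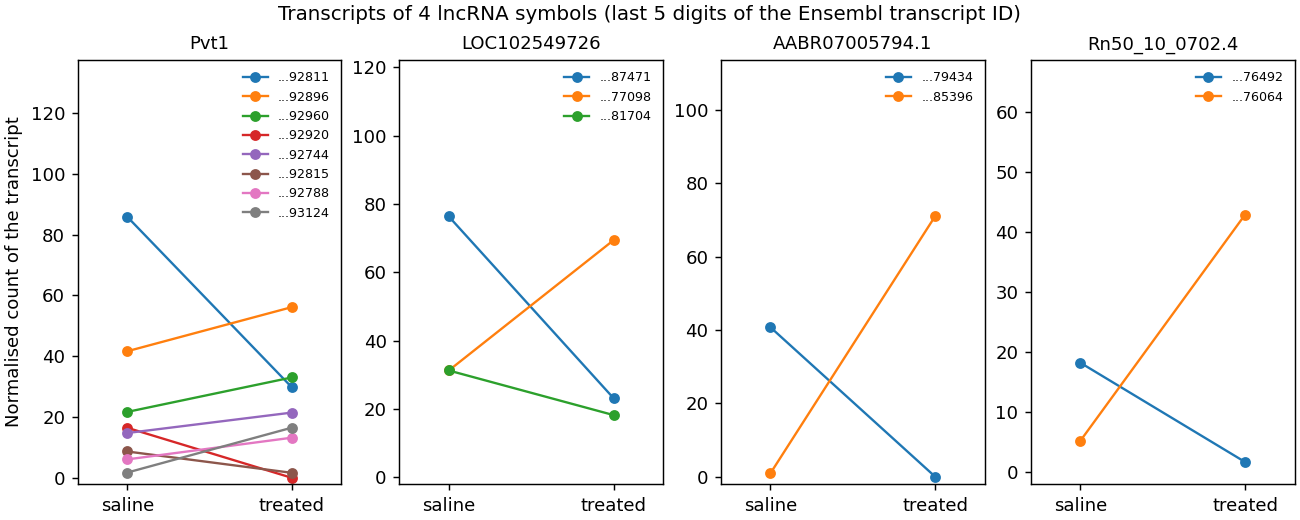
Normalised counts (vertical axis, linear) of each transcript in the saline and treated libraries, for 4 symbols with several transcripts; each line is 1 transcript, with 1 library per group and no error bars. In every panel at least 1 line goes down and 1 goes up: for Pvt1, ENSRNOT00000092811 goes from a normalised count of 85.9 to 29.7 while ENSRNOT00000092896 goes from 41.6 to 56.2.

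Opposite transcripts were also found among clone-named symbols. AABR07005794.1 had 48 against 43 reads in sum, a log2 fold of 0.76 (interval 0.14 to 1.39). Of its transcripts, ENSRNOT00000079434 had 47 against 0 reads, at least 8.23-fold lower, while ENSRNOT00000085396 had 1 against 43 reads (interval 3.80 to 11.7). Nearly all reads of the gene thus stood on one transcript in the saline and on the other in the treated library. Rn50_10_0702.4 had 27 against 27 reads in sum, a log2 fold of 0.90 (interval 0.10 to 1.75) given the lower depth of the treated library. Its transcript ENSRNOT00000076492 had 21 against 1 reads (interval -8.83 to -0.83) and ENSRNOT00000076064 had 6 against 26 reads (interval 1.73 to 4.62). AABR07052758.1, better covered with 361 against 242 reads, was at 0.35 in sum, with one transcript at 0.74 (243 against 214 reads) and the other at -1.13 (118 against 28 reads). Among the 47 lncRNA symbols with several transcripts, 9 (19.1%) had at least 1 transcript with an interval above 0 and 1 with an interval below 0. Of 2562 protein-coding symbols with several transcripts, 653 (25.5%) did. The transcripts of LOC103692471 carried identical values, 14 against 7 reads each, so that its sum may count the same reads more than once.

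Of the named symbols, 15 reached a normalised count of 5 in the saline or the treated library. Besides Tug1, 3 of them had intervals above 0 with reads in both libraries. LOC103689920 had 58 against 53 reads (log2 fold 0.79, interval 0.23 to 1.36) and LOC102552356 had 41 against 40 reads (log2 fold 0.88, interval 0.23 to 1.56). AA926063, with 4 against 8 reads, was at 1.67 (interval 0.03 to 4.11). Its RefSeq neighbours went lower: Daxx, a histone chaperone gene, was at -0.34 (307 against 127 reads) and Kifc1, a kinesin gene, at -0.88 (985 against 281 reads). Kantr, a noncoding RNA gene beside the histone demethylase gene Kdm5c, had 3 against 5 reads and an interval of -0.70 to 4.35. Kdm5c went from 1486 to 539 reads, a log2 fold of -0.53. LOC100909912 had 69 against 44 reads and was at 0.28 (interval -0.30 to 0.85), beside the coactivator gene Ncoa3 at -0.73 (1162 against 367 reads). LOC102549869 had 24 against 5 reads and an interval of -3.08 to 0.09. Its nearest measured neighbours were at 0.62 (Tmsb4x, 1048 against 844 reads) and 2.54 (Tceanc, 2 against 9 reads).

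Some named symbols had reads in 1 library only. LOC100909586 had 18 against 0 reads, at least 3.15-fold lower in the treated library. LOC103691740 had 0 against 7 reads, at least 4.44-fold higher, and LOC102556051 had 0 against 4 reads, at least 2.54-fold higher, against a floor of 3 reads in the saline library. The nearest measured neighbours of LOC103691740 were higher too, St6galnac3 at 0.39 and Rabggtb at 0.77. Those of LOC102556051 were Slc30a5 at -0.01 and Pik3r1 at 0.01. A link between the folds of lncRNAs and of their neighbours was not tested. Lrrc36, a gene that RefSeq lists as protein coding, and LOC102551439 each had 7 against 0 reads, with intervals that held 0. Over the 18 named symbols, 5 were at least 2-fold higher and 5 at least 2-fold lower by a rule of size. By that rule the log2 fold must reach 1 in size, and the normalised count must reach 1 in the saline or the treated library. Over all symbols it takes 12.1% as higher and 19.1% as lower. With 11 named symbols at a normalised count of at least 10, there were 2 higher and 2 lower, against a background of 8.97% and 12.3%.

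**Figure D2:**
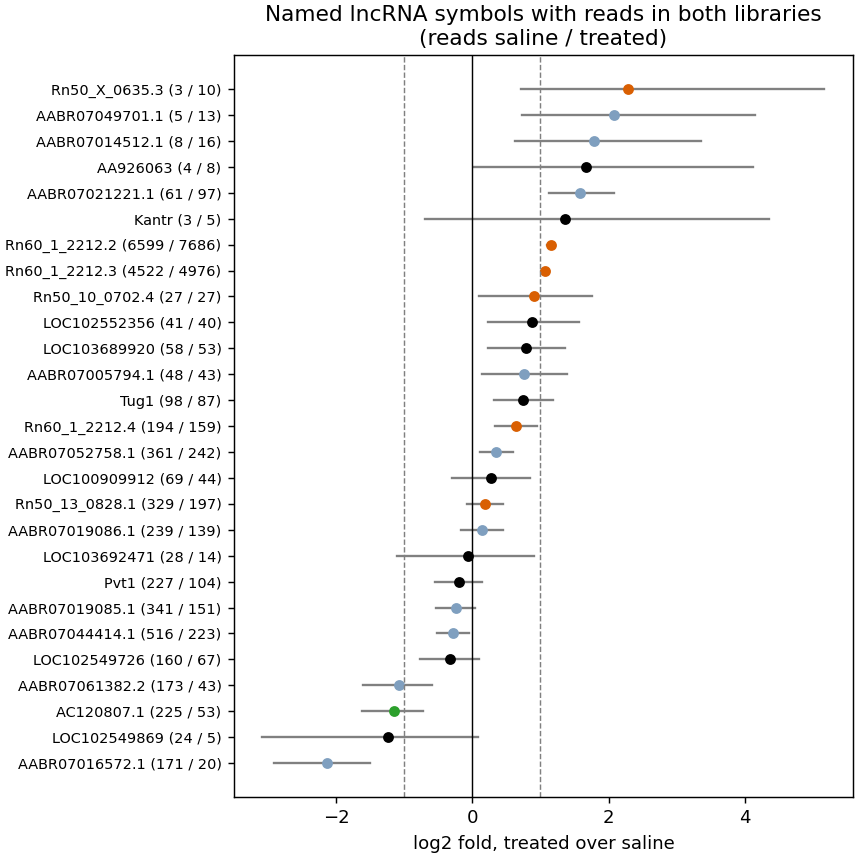
Log2 fold of the treated over the saline library (horizontal axis) for 27 of the 208 lncRNA symbols with reads in both libraries. They were picked by gene name, level, deposited p-value or size of fold, so their spread is not that of all lncRNA symbols. Points are on normalised counts plus 1, and bars are exact 95% counting intervals without the added 1. Dashed lines mark 2-fold, and brackets give reads in the saline and treated library. At the authors' scaling, the intervals of Rn60_1_2212.2 and Rn60_1_2212.3 lie wholly above 1 and that of AABR07016572.1 wholly below -1. Those of Pvt1 and LOC102549726 hold 0.

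Among clone-named symbols, 2 held most of the reads. Rn60_1_2212.2 (ENSRNOG00000062127) had 6599 reads in the saline and 7686 in the treated library, normalised counts of 5723 and 12695. The log2 fold was 1.15 (interval 1.10 to 1.20). Rn60_1_2212.3 (ENSRNOG00000062155) had 4522 against 4976 reads, normalised counts of 3922 and 8219, and was at 1.07 (interval 1.01 to 1.13). Rn60_1_2212.4 (ENSRNOG00000062158), of the same name stem, had 194 against 159 reads and was at 0.64 (interval 0.33 to 0.95). All of the stem's 3 symbols were thus higher in the treated library. Neither the files nor the RefSeq table pair these symbols with a gene name.

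Rn60_1_2212.2 and Rn60_1_2212.3 together took 49.7% of the lncRNA reads in the saline and 69.6% in the treated library. Ensembl lncRNAs as a whole took 0.308% of all reads in the saline library (22388 reads, exact interval 0.304% to 0.312%) and 0.459% in the treated library (18190 reads, exact interval 0.452% to 0.465%). The summed normalised count was 1.55 times as high in the treated library. Without both symbols, the share was 0.155% in the saline and 0.139% in the treated library, and the summed normalised count was 0.934 times as high. The direction of the class total therefore rested on those 2 symbols. By prefix, the AABR symbols went from 0.120% to 0.106% of reads, the AC symbols from 0.00957% to 0.00721%, the Rn50 and Rn60 symbols from 0.167% to 0.335%, and the named symbols from 0.0103% to 0.0112%, where the exact intervals overlap. Without Rn60_1_2212.2 and Rn60_1_2212.3, the summed normalised count of the Rn50 and Rn60 symbols was 1.11 times as high in the treated library (log2 ratio 0.15, interval 0.0078 to 0.30). That sum, 911.6 in the saline and 1014.1 in the treated library, still holds Rn60_1_2212.4 of the same stem. Rn60_1_2212.4 alone had 168.3 and 262.6, so the sum does not show a rise of Rn50 and Rn60 symbols outside the stem. The predicted lncRNA transcripts of the same table, a larger class, took 3.09% and 2.88% of reads.

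**Figure D3:**
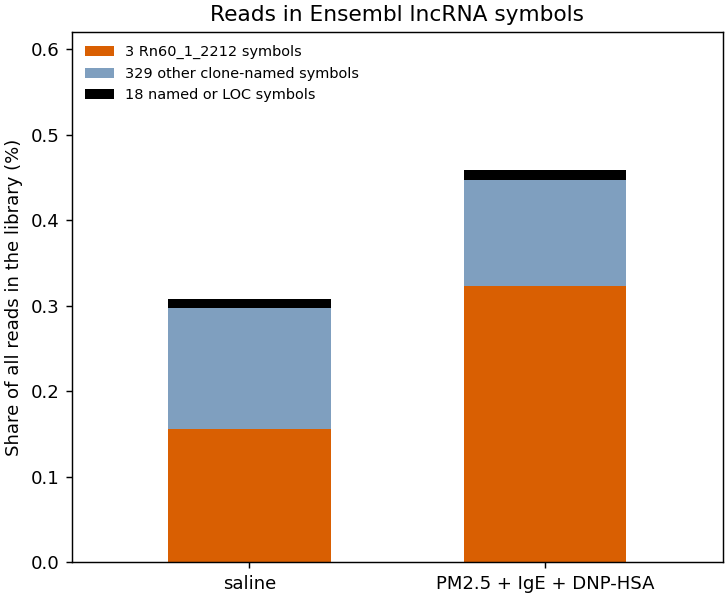
Share of all reads in each library (vertical axis, percent) that fell on Ensembl lncRNA symbols, split into the 3 Rn60_1_2212 symbols, the 329 other clone-named symbols and the 18 named symbols; 1 library per bar. The Rn60_1_2212 part goes from 0.155% in the saline to 0.323% in the treated library while the total goes from 0.308% to 0.459%.

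Other clone-named symbols with the highest means stayed within 2-fold. AABR07044414.1 had 516 against 223 reads (log2 fold -0.28, interval -0.51 to -0.05). Rn50_13_0828.1 had 329 against 197 reads (0.19, interval -0.07 to 0.45). AABR07019085.1 had 341 against 151 reads (-0.25, interval -0.53 to 0.03) and AABR07019086.1 had 239 against 139 reads (0.15, interval -0.16 to 0.45). AABR07052758.1 had 361 against 242 reads (0.35, interval 0.11 to 0.59). The intervals of Rn50_13_0828.1, AABR07019085.1 and AABR07019086.1 held 0, that of AABR07044414.1 lay below 0 and that of AABR07052758.1 above it.

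Over the 47 symbols with at least 100 reads in both libraries together, 3 were at least 2-fold higher (6.38%) and 7 at least 2-fold lower (14.9%). Over all symbols with as many reads, 6.36% were higher and 7.63% lower, so the share of higher members is that of the background. These 47 held 82.3% of lncRNA reads in the saline and 88.95% in the treated library. The higher ones were Rn60_1_2212.2, Rn60_1_2212.3 and AABR07021221.1, the last with 61 against 97 reads and a log2 fold of 1.58 (interval 1.12 to 2.08). The lowest was AABR07058985.2 with 119 against 0 reads, at least 20.8-fold lower against the floor. Both of its transcripts had 0 reads in the treated library, against 90 and 29 in the saline. AABR07016572.1 followed with 171 against 20 reads and a log2 fold of -2.13 (interval -2.91 to -1.49). AC120807.1 had 225 against 53 reads (-1.15, interval -1.62 to -0.72) and AABR07061382.2 had 173 against 43 reads (-1.07, interval -1.60 to -0.59). The remaining lower ones, picked out after their values were seen, were AABR07031399.1, AABR07027272.1 and AABR07026197.1, with log2 folds of -1.15, -1.07 and -1.03. With protein-coding symbols centred at 0, AABR07061382.2 was at -0.97. That centring moves log2 folds up by 0.10, so AABR07027272.1 and AABR07026197.1 also come short of 2-fold under it.

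**Figure D4:**
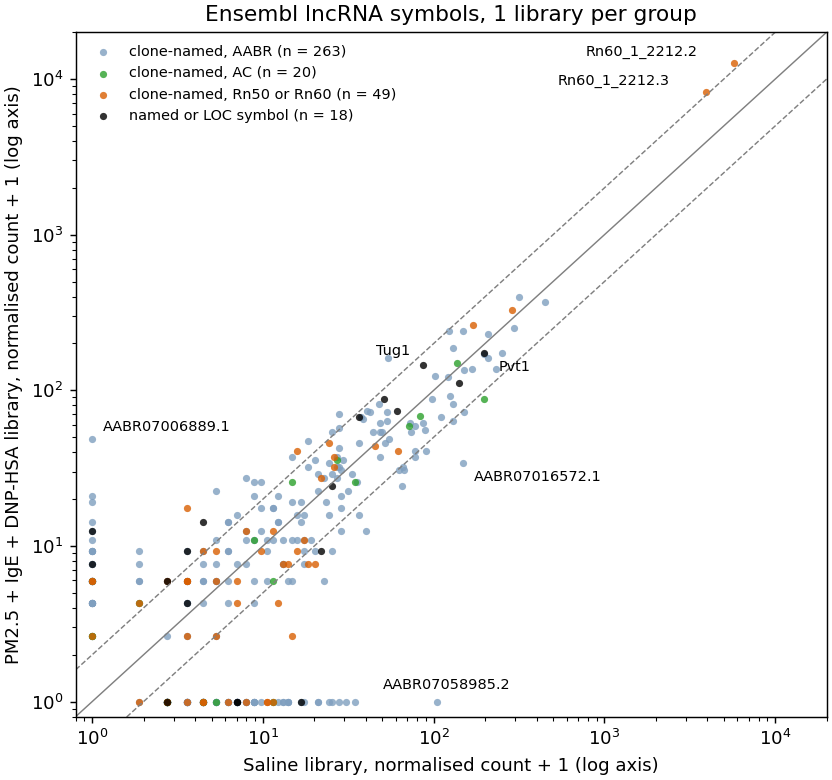
Normalised count plus 1 in the saline (horizontal) and treated (vertical) library on log axes for 350 Ensembl lncRNA symbols, coloured by name prefix; the solid line marks equal values and dashed lines 2-fold. Most points lie at low counts, Rn60_1_2212.2 and Rn60_1_2212.3 stand far above the rest near the upper dashed line, and points on the lower and left edges are symbols with 0 reads in 1 library, such as AABR07058985.2 and AABR07006889.1.

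Several clone-named symbols had reads in 1 library only. On the low side these included AABR07013729.1 (39 against 0 reads, at least 6.83-fold lower), AABR07005921.1 (34 against 0, at least 5.95-fold), AABR07043772.1 (31 against 0, at least 5.43-fold) and AABR07027870.1 (28 against 0, at least 4.90-fold). AABR07060620.1 had 27 against 0 reads, at least 4.73-fold lower. AABR07043365.1 and AABR07027287.1 each had 23 against 0 reads, at least 4.03-fold lower. On the high side AABR07006889.1 had 0 against 29 reads, at least 18.4-fold higher. AABR07028907.1 (0 against 12 reads), AABR07030834.1 (0 against 11), AABR07060862.1 (0 against 8) and AABR07017770.2 (0 against 7) were at least 7.62-, 6.98-, 5.08- and 4.44-fold higher. With reads in both libraries, Rn50_X_0635.3 (3 against 10 reads, interval 0.71 to 5.17), AABR07049701.1 (5 against 13, interval 0.73 to 4.15) and AABR07014512.1 (8 against 16, interval 0.62 to 3.36) were also higher.

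In all, 313 of the 350 symbols had reads in the saline and 245 in the treated library. They were 208 in both, 105 in the saline library only and 37 in the treated library only. If the saline library were drawn down to the depth of the treated one, 299.8 symbols would be expected to keep a read, so that the treated library held 81.7% of that number. For protein-coding symbols it held 94.5%, and over all transcripts 91.9%. These shares were not matched on read number: the median lncRNA symbol had 14 reads in both libraries together, against 221 for protein-coding symbols. A difference in RNA quality or in library complexity was not tested.

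By the rule of size, 71 of 348 lncRNA symbols (20.4%) were higher and 130 (37.4%) lower in the treated library, above the backgrounds of 12.1% and 19.1% over all symbols. Their median log2 fold was -0.26, against -0.10 over protein-coding and -0.07 over all symbols. With symbols at 0 reads set to their bound against the floor, or to 0 where they had no bound, the median was 0. The same setting gave -0.02 over protein-coding and 0 over all symbols. It draws medians towards 0 by construction and gives no direction. Few reads stood behind many of the symbols past the rule of size. Of the higher ones 37 had 0 reads in the saline library and 23 of these came short of 2-fold against the floor. Of the lower ones 103 had 0 reads in the treated library and 83 came short. With a normalised count of at least 10, 25 of 180 symbols were higher and 44 lower, or 13.9% and 24.4%, against backgrounds of 8.97% and 12.3%. At 50 or more, a filter chosen after the data were seen, 6 of 67 were higher and 11 lower, or 8.96% and 16.4%, against 7.47% and 8.59%. Counting intervals lay above 0 for 44 lncRNA symbols and below 0 for 52, or 12.6% and 14.9% of those tested, against 22.8% and 26.8% over all symbols, which have more reads.

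Set beside protein-coding symbols of like read number, the shares were close except at the top. With 1 to 9 reads, 31.6% of 152 lncRNA symbols were higher and 53.9% lower, against 29.3% and 56.3% of protein-coding symbols. With 10 to 29 reads the shares were 16.1% and 34.5% of 87 lncRNA symbols, against 17.1% and 34.1%. With 30 to 99 reads they were 9.68% and 17.7% of 62, against 11.9% and 21.6%. With 100 reads or more, 6.38% were higher in both classes, while 14.9% of the 47 lncRNA symbols (7) were lower against 7.75% of protein-coding ones. Of those 7, AABR07061382.2, AABR07027272.1 and AABR07026197.1 no longer reach 2-fold with protein-coding symbols centred at 0. The protein-coding share is not given with that centring. Median log2 folds in those 4 ranges were -1.45, -0.45, 0.21 and -0.25 for lncRNA symbols and -1.45, -0.27, -0.16 and -0.06 for protein-coding ones.

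**Figure D5:**
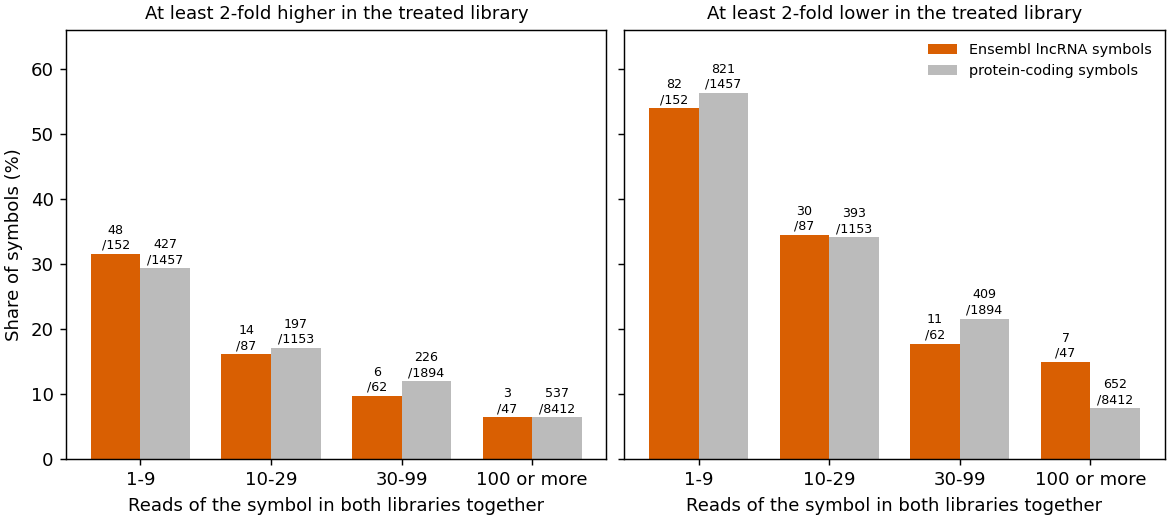
Share of symbols (vertical axis, percent) that were at least 2-fold higher (left) or lower (right) in the treated library, by the symbol's reads in both libraries together, for Ensembl lncRNA and protein-coding symbols; labels give the number called over the number in the range. Shares fall from 31.6% to 6.38% (higher) and from 53.9% to 14.9% (lower) for lncRNA symbols as reads increase, and only the right-most pair on the right, 7 of 47 against 652 of 8412, stands apart by more than 1.5 times.

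Clone names can share a stem, and symbols of 1 stem were compared. There were 13 stems with at least 2 symbols at a normalised count of 1 or more, covering 29 symbols. In 2 stems all symbols were above 0, in 3 all were below 0, and in 8 they went both ways. The Rn60_1_2212 stem is one of the first group. In the AABR07058985 stem, AABR07058985.1 was at -0.62 beside AABR07058985.2, which had 0 reads in the treated library.

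Of the well-known noncoding genes listed for comparison, few were measured. In the list of nuclear body and chromatin RNAs, Tug1 and Pvt1 were the 2 of 16 found, while Malat1, Neat1, Miat and Norad carry no symbol here. None of 4 X inactivation genes and none of 9 imprinted noncoding genes was listed by symbol. Of 48 small RNA host genes and housekeeping RNAs, only Rmrp and Terc were found, both outside the Ensembl lncRNA class. Rmrp, the RNA of the ribonuclease MRP, was at 0.08 (44337 against 24676 reads) and Terc, the telomerase template RNA, at 0.09 (323 against 181 reads). A missing symbol does not show that a gene was not expressed, since 332 lncRNA symbols are clone names.

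Genes of proteins that bind or process such RNAs were set beside all symbols. By the rule of size, 12.1% of all symbols were higher and 19.1% lower. At a normalised count of 50 or more, which all measured genes of these lists but Upf3a reach, 7.47% were higher, 8.59% lower and 47.9% above 0. The list counts below use the rule without that filter. In lists of 7 to 10 genes a count of 0 or 1 is near either background. Of 7 paraspeckle proteins, which assemble on a noncoding RNA scaffold, 0 were higher and 1 lower, and their median log2 fold was -0.40. The lower one was Rbm14 at -1.40 (615 against 122 reads, interval -1.70 to -1.12), while the related core proteins Nono, Sfpq and Pspc1 went both ways. Nono was at 0.29 (1387 against 893 reads, interval 0.17 to 0.42), Sfpq at -0.40 (561 against 223 reads, interval -0.63 to -0.18) and Pspc1 at -0.96 (171 against 46 reads, interval -1.47 to -0.49). None of the 8 measured proteins of small nucleolar ribonucleoproteins passed 2-fold, with a median of -0.29. The box C/D proteins differed among themselves, Nop58 at 0.85 (355 against 336 reads) and Nop56 at -0.52 (1256 against 461 reads). Of 10 factors of nonsense-mediated decay, which degrades many spliced noncoding RNAs, Upf2 was higher at 1.72 (165 against 286 reads, interval 1.44 to 2.01) and Upf3a lower at -1.64 (38 against 6 reads, interval -3.27 to -0.48), with a median of -0.34. None of 8 microRNA processing genes passed 2-fold, and 7 of 8 were below 0, with a median of -0.38. Their intervals lay below 0 for 4 and above 0 for 1, and the others held 0. Dicer1, the enzyme that cuts microRNA precursors, was at -0.94 (344 against 94 reads) and Prkra, a Dicer partner, at 0.93 (149 against 150 reads).

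In the authors' deposited table, whose fold is the saline over the treated library, 0 of 410 Ensembl lncRNA transcripts had a p-value under 0.05, against 65 of all 20367 (0.319%), and the lowest adjusted p-value was 0.92 for both. In the authors' deposited table, the lowest p-value of a higher transcript was that of Rn60_1_2212.2 at 0.0656, followed by Rn60_1_2212.3 at 0.082 and AABR07021221.1 at 0.144. In the authors' deposited table, the lowest p-values on the lower side were 0.103 for AABR07016572.1, 0.189 for AC120807.1, 0.196 for the LOC102549726 transcript ENSRNOT00000087471 and 0.207 for the Pvt1 transcript ENSRNOT00000092811.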

How the data were processed

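RNA of RBL-2H3 cells was measured by RNA sequencing in 1 saline and 1 treated library, made with a strand-specific TruSeq kit per the labels' protocols. Per the submitters' processing notes, the tools were STAR 2.5, DESeq 1.22.1, Cuffnorm and FastQC, with no role named. The genome build and the counting of reads are not stated there. For each transcript the authors deposited a log2 value in both libraries. Undoing the log2 and taking off 1 gave whole numbers of reads, to within 1e-06 reads, for 100% of values once divided by 0.867 (saline) or 1.65 (treated), so these are taken as a count over a size factor of 1.15 or 0.605. The authors' deposited p-values are quoted unchanged. Another 8 per-sample columns hold repeats and were left out.

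Values of transcripts with the same symbol were added. Where a symbol had 0 reads in one library, its bound uses 3 reads there, equal to 2.60 (saline) or 4.95 (treated) as a normalised count. RefSeq (GRCr8) matched 12 of 18 named and 0 of 332 clone-named symbols and gave names and gene order only, besides the promoters. Named genes were all named symbols at a normalised count of at least 5, the 8 highest means and 8 largest folds each way (at 10 or more) among clone-named ones, members of the comparison lists and the 5 lowest deposited p-values each way. Members, lists and rules were chosen with earlier results of these data known. The intervals were run on simulated counts that held counting error alone, the error they assume. This checked the code and cannot show the spread between cultures. Alternatives were another pseudocount, filters, the highest isoform alone and 3 rescalings, including trimmed means of M-values computed from the usual formula. The scripts ran under Python 3.11.15 with SciPy 1.17.1, pandas 2.3.3, NumPy 2.4.6 and, for the plots, Matplotlib 3.10.9.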

Additional observations from a re-analysis of the deposited data

How the results depend on the processing

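Counts of lncRNA symbols past the rule of size depended on how low counts were treated. The main counts were 71 higher and 130 lower. They were 28 and 62 with a pseudocount of 5, 25 and 44 with a filter of 10, and 6 and 11 with a filter of 50, the last chosen after the data were seen. These settings lower the counts by construction, since they damp or drop symbols with few reads. With no filter, the highest isoform alone and 3 rescalings, the counts stayed within 1.5 times the main ones, and the median log2 fold was -0.31 to -0.16 over these and the filters and pseudocount above. It was 0 with symbols at 0 reads set to their bound, or to 0 where they had none, which draws the median towards 0 by construction. Centring protein-coding symbols at 0 moves all log2 folds up by 0.10. The lncRNA share of reads was 0.217% in the saline and 0.265% in the treated library without Rn60_1_2212.2, and 0.155% and 0.139% without Rn60_1_2212.3 as well, the latter chosen after the data were seen. No lncRNA symbol also had protein-coding transcripts. The symbols described one by one include clone-named ones picked for their folds. Of those past the rule of size, short of it fell Kantr with a pseudocount of 5 (0.80) or its highest isoform alone (0.73), LOC102549869 with a pseudocount of 5 (-0.96) and AABR07061382.2 with protein-coding symbols centred at 0 (-0.97). Only the named genes, as defined above, were put through these alternatives. AABR07027272.1 (-1.07) and AABR07026197.1 (-1.03) were not among them, and the shift of 0.10 takes both short of 2-fold as well. With the highest isoform alone Pvt1 was at -1.50, LOC102549726 at 1.13, AABR07005794.1 at 5.27, AABR07052758.1 at 0.74 and Rn50_10_0702.4 at 2.82. Rescaled by library totals, Rn60_1_2212.2 was at 1.09 and Rn60_1_2212.3 at 1.01, the latter close to the limit of 1. With protein-coding symbols centred at 0 they were at 1.25 and 1.17. Counting intervals do not cover the choice of scaling. No paired analysis was possible because each group has 1 library. Depth limits many symbols: 154 of 350 had under 10 reads in both libraries together.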
